A study of Mus musculus with 18 samples.

Results

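The genes described here are 10 widely used markers of macrophages, chosen by symbol: Csf1r, Cx3cr1, Aif1, Cd68, Lyz2, Mrc1, C1qa, C1qb, C1qc and Cd74. All 10 were found among the 17198 genes of the expression table. The samples were cultures labelled as neurons of the dorsal root ganglia (DRG), the clusters of sensory nerve cells beside the spinal cord, and were read by RNA sequencing of total RNA. Wild-type (WT) cultures were set against cultures heterozygous for the tm1a allele of Dynlrb1, written Dynlrb1(tm1a/+) in the labels and HET here, at 12, 24 and 48 h in culture, with 3 biological repeats per genotype and time and 18 cultures in all. Dynlrb1 encodes a light chain of the dynein motor. The labels name no other allele and no added agent for either genotype, and do not give the age or sex of the mice, the number of animals per culture or how the cells were purified.

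Macrophages are phagocytes that live in most tissues, the sensory ganglia included, where they lie around the neuron cell bodies and clear debris. Csf1r is the receptor for the growth factors CSF1 and IL34, on which most tissue macrophages depend, and Cx3cr1 is the receptor for fractalkine (Cx3cl1), which neurons display. Aif1 (IBA1) binds actin, Cd68 is a glycoprotein of the late endosome and lysosome, Lyz2 is the lysozyme of myeloid cells, and Mrc1 is the mannose receptor. C1qa, C1qb and C1qc encode the chains of C1q, the recognition molecule of the classical complement pathway, and Cd74 is the invariant chain that escorts MHC class II molecules before they present peptide.

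The C1q genes lie side by side on chromosome 4 (GRCm38), on the minus strand, within 18.7 kb from 136880129 to 136898803: C1qb at 136880129 to 136886187, C1qc at 136889804 to 136893065 and C1qa at 136895917 to 136898803. Cd68 (chromosome 11, 69664213 to 69666153) and Lyz2 (chromosome 10, 117277331 to 117282321) are also on the minus strand, and Mrc1 is on the plus strand of chromosome 2 (14229392 to 14332057). RefSeq promoter windows (GRCm38.p6), the 250 bases before the annotated start, were read for 7 members, leaving out C1qa, Csf1r and Cd74. The windows of C1qb and Cd68 are printed, one with a motif shared by several members and one without it; both are read from the minus strand, at chr4:136886201-136886450 and chr11:69666171-69666420. Capitals mark AGGAAGT or its reverse complement ACTTCCT, which holds the GGAA core bound by ETS factors such as PU.1.
C1qb: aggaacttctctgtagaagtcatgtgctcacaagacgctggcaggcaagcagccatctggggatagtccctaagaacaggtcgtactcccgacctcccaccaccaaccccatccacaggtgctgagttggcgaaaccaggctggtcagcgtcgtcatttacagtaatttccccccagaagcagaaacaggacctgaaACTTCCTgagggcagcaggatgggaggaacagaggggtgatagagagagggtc
Cd68: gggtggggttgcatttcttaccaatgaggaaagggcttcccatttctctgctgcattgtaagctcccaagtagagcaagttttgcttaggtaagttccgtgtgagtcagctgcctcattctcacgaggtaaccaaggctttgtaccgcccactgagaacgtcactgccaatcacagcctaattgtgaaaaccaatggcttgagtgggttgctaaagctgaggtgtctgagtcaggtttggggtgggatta
AGGAAGT, on either strand, was in 4 of the 7 windows (C1qb, C1qc, Lyz2 and Mrc1) and in 7.69% of 32851 promoter windows of the same length. In C1qb it began 53 bases before the RefSeq start. The starts of C1qb, C1qc, Lyz2 and Mrc1 differ between RefSeq and the gene positions given above. The C1qb distance therefore holds for the RefSeq start only, and no distances are compared between genes. GAGGAA, which can overlap the first motif, was in 5 of the 7 windows and in 23.3% of all windows, and the Cd68 window held GAGGAA without the longer motif. The letters were chosen with these windows in view, and a match is no evidence of binding.

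The genotype labels were checked on Dynlrb1 itself: its normalized count was 5229 to 6674 in the 9 WT cultures and 2716 to 4087 in the 9 HET cultures, without overlap, a fold of 0.563 averaged over the times (log2 difference -0.83, SE 0.07). The labelled cell type was checked on 12 neuronal genes, whose summed FPKM (fragments per kilobase of transcript, scaled to the library) was 6260 to 9054 in the 18 cultures, against 40.7 to 153 for the 10 macrophage markers. Every culture therefore carried the macrophage transcripts at a low summed level beside the neuronal ones. One culture stood apart: along the line from the mean WT profile at 12 h (0%) to that at 48 h (100%), drawn over all genes, HET replicate 3 at 48 h lay at 27.3%, against 76.1% and 62.8% for the other HET cultures and 80.7 to 116% for WT at 48 h. For the HET comparisons at 48 h, values without it are given beside the main ones for the members and lists described, except for the wider macrophage list between genotypes. In bulk RNA, fewer cells of a type and less RNA per cell cannot be told apart.

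Lyz2 and Cd68 were the most abundant members per length, with a mean FPKM over the 18 cultures of 30.5 ± 12.6 (SD) for Lyz2 and 27.0 ± 16.0 for Cd68. Cd74 followed at 8.16 ± 4.62, then the C1q chains at 3.74 ± 1.24 for C1qb, 3.45 ± 2.00 for C1qa and 2.93 ± 1.85 for C1qc. Csf1r stood at 2.56 ± 0.56, Aif1 at 1.03 ± 0.36, Mrc1 at 0.630 ± 0.185 and Cx3cr1 at 0.358 ± 0.084. The steps from Csf1r to Aif1 (18 of 18 cultures), Aif1 to Mrc1 (17 of 18) and Mrc1 to Cx3cr1 (17 of 18) held almost throughout. Neighbours higher in the order exchanged places more often: Lyz2 was above Cd68 in 13 of 18 cultures and C1qc above Csf1r in 7 of 18. The members also differed in how far they moved: by FPKM, the highest culture was 8.79 times the lowest for Cd68, 8.76 for C1qa and 8.25 for Cd74, but 2.50 for Csf1r and 2.26 for Cx3cr1. Cx3cr1 is annotated over Gorasp1, Csrnp1, Xirp1, Wdr48 and Ttc21a, Csf1r lies opposite Hmgxb3, and Lyz2 has a close paralog, Lyz1; how reads shared by such genes were assigned, and whether strand was used, is not given in the sources used here, so these levels are uncertain.

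**Figure D1:**
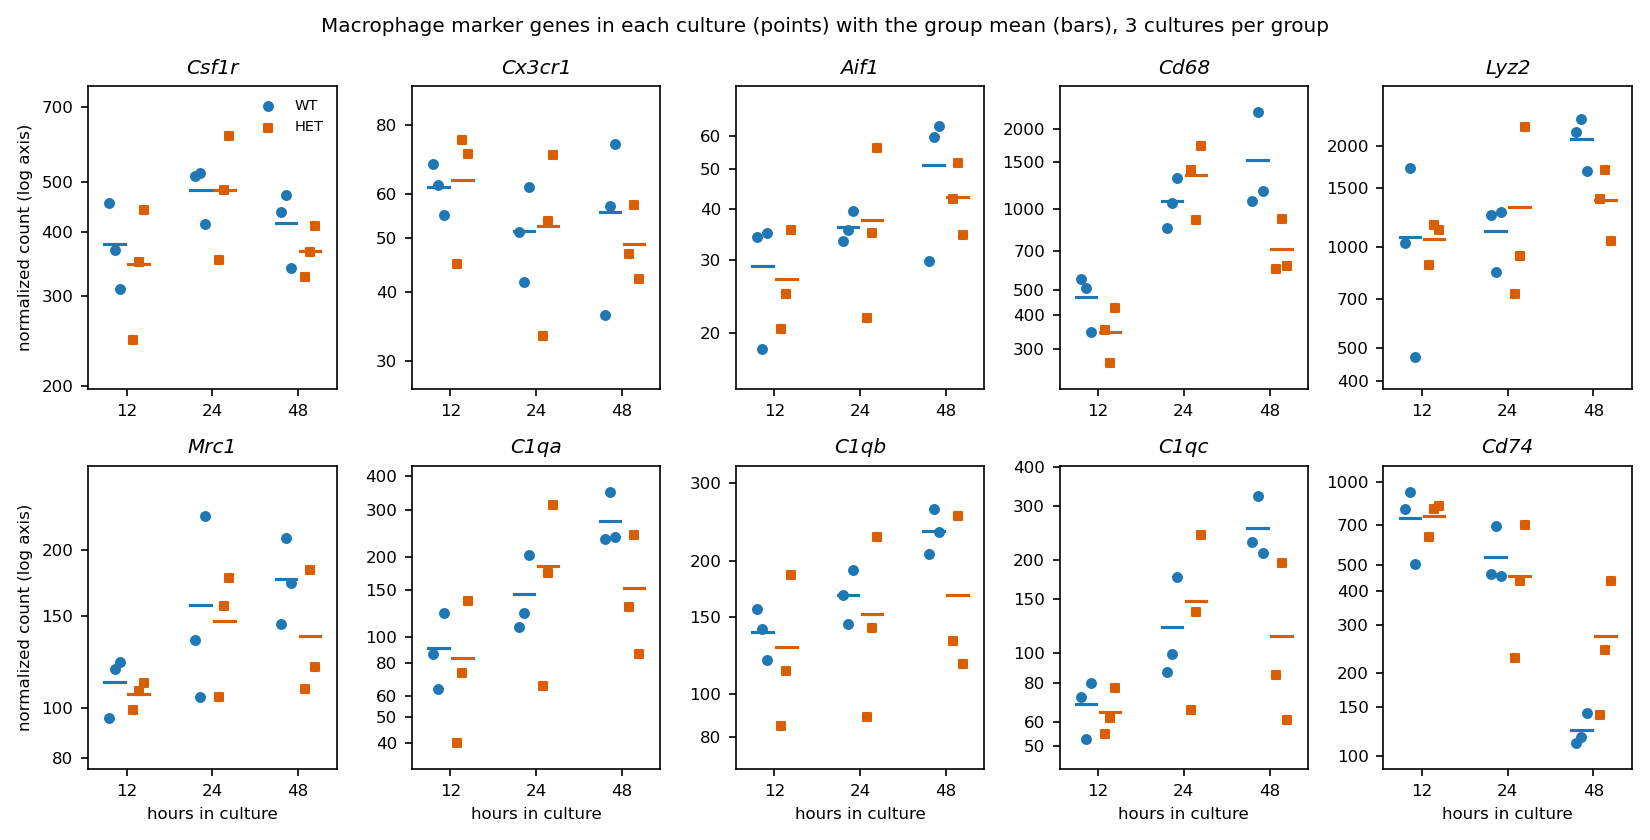
Normalized count of each macrophage marker (log axis, scaled per gene) against hours in culture, with 1 point per culture and a bar at the mean of the 3 cultures. Cd68 and the C1q genes are higher at 48 than at 12 h in every WT culture, Cd74 is lower, and Csf1r and Cx3cr1 overlap at all times.

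The comparison of WT cultures at 48 and 12 h asks how these genes differ with time in culture within 1 genotype. The 12 and 24 h groups held replicates 1, 2 and 5 and the 48 h groups 1, 2 and 3, so time and replicate set cannot be fully separated. Cd68, C1qc, C1qa and Lyz2 rose and Cd74 fell, so 5 of the 10 markers changed at an adjusted p under 0.05 (limma over all genes, Benjamini-Hochberg). In this comparison 47.1% of all genes changed, 30% upwards and 17.1% downwards, so the number of changed markers was close to that of genes at large. The median log2 difference was 0.76 for the members and 0.11 for all genes. Normalized counts that did not overlap between the times were found for 6 members, against 55.3% of all genes. Between 12 and 24 h 2 members (Cd68 and C1qc, higher) did not overlap, against 26.9% of all genes, and between 24 and 48 h 5 did not (C1qa, C1qb, C1qc and Lyz2 higher, Cd74 lower), against 46%.

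Cd68, the lysosomal glycoprotein, read 548, 507 and 347 normalized counts in the WT cultures at 12 h, 854, 1054 and 1311 at 24 h, and 1079, 2322 and 1176 at 48 h. All cultures at 24 and 48 h were above all at 12 h, and the spread at 48 h came from replicate 2. The log2 difference from 12 to 48 h was 1.64 (SE 0.30, adjusted p = 0.000373), a 3.12-fold rise, and most of it, 1.20 (SE 0.30, adjusted p = 0.0368), was present at 24 h. Cd68 was the only member called between 12 and 24 h in WT, where 3.62% of all genes were called. That 24 h call did not hold when any 1 of the 6 cultures was left out (adjusted p 0.0550 to 0.142), and the count over the whole table fell too: 197 genes were called without replicate 1 at 12 h, 85 without replicate 5 at 12 h and 0 in the other 4 fits, against 622 with all cultures.

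C1qc read 72.2, 52.7 and 80.2 in WT at 12 h, 87.1, 99.6 and 177 at 24 h, and 229, 324 and 210 at 48 h. The times did not overlap, and the rise from 12 to 48 h was 3.67-fold (log2 1.88, SE 0.43, adjusted p = 0.00224). C1qa read 86.1, 63.9 and 124 at 12 h, 109, 124 and 204 at 24 h, and 233, 351 and 237 at 48 h. Its lowest culture at 48 h was above every earlier one, and the rise was 3.03-fold (log2 1.60, SE 0.51, adjusted p = 0.0171). C1qb, whose gene adjoins C1qc, moved less: its values were 119 to 156 at 12 h and 208 to 263 at 48 h, without overlap, and the difference of 0.76 (SE 0.33, adjusted p = 0.0723) missed the threshold. The chains thus moved by unequal amounts in the same cultures, and the log2 ratio of C1qc to C1qb FPKM went from -1.02 ± 0.43 (SD, n = 3) to 0.11 ± 0.22. The C1qa call was lost without WT replicate 2 at 12 h (adjusted p = 0.0690) or at 48 h (0.0713).

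Lyz2, the myeloid lysozyme, read 1030, 1723 and 473 in WT at 12 h, 1243, 843 and 1268 at 24 h, and 2193, 2409 and 1685 at 48 h. The 12 h cultures spread widely, and replicate 2 reached above the lowest 48 h culture. The rise was 2.2-fold (log2 1.13, SE 0.40, adjusted p = 0.0276). Neutrophils also make this lysozyme, and the summed normalized count of 10 neutrophil genes at 12 h was 3521, 7425 and 243 in the same order of cultures, highest and lowest where Lyz2 was, and 120 to 176 at 48 h; its part in the Lyz2 values was not tested. The call was lost without replicate 5 at 12 h (log2 difference 0.64, adjusted p = 0.178), or without replicate 1 (0.0676) or 2 (0.0918) at 48 h.

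Cd74, the MHC class II invariant chain, went the other way. It read 797, 920 and 501 in WT at 12 h, 461, 690 and 455 at 24 h, and 112, 117 and 143 at 48 h. The 48 h cultures lay together below every other WT culture, and the fall was 5.78-fold (log2 -2.53, SE 0.38, adjusted p = 9.89e-05). Between 24 and 48 h, Cd74 was the only member called in WT (log2 -2.08, SE 0.38, adjusted p = 0.00343), with 27.7% of all genes called, and from 12 to 24 h the difference was -0.45 (SE 0.38). C1qc, at 1.11 (SE 0.43, adjusted p = 0.0659) between 24 and 48 h, passed when WT replicate 5 at 24 h was left out (1.41, adjusted p = 0.0399). Both calls of Cd74 held without any single culture, with an adjusted p of 0.000237 to 0.000915 for 12 to 48 h.

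The remaining members did not pass in WT. Mrc1 read 95.3 to 122 at 12 h and 145 to 211 at 48 h, without overlap (log2 0.64, SE 0.28, adjusted p = 0.0661). Aif1 had a difference of 0.77 (SE 0.37, adjusted p = 0.0944), which passed without WT replicate 1 at 48 h (1.11, adjusted p = 0.0281). The receptor genes moved least: Csf1r stood at 378 ± 74 at 12 h and 416 ± 69 at 48 h (log2 0.14, SE 0.22), and Cx3cr1 at 61.8 ± 6.5 and 55.8 ± 18.9 (log2 -0.20, SE 0.31), SD with n = 3.

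**Figure D2:**
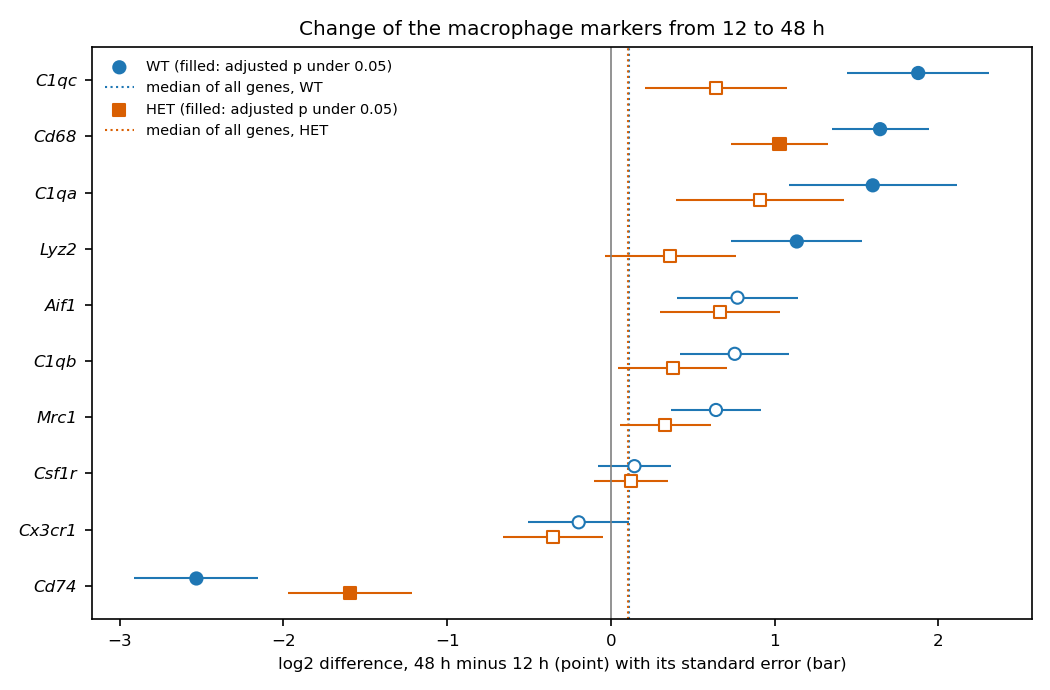
Log2 difference between 48 and 12 h in WT (circles) and HET (squares) cultures for each macrophage marker, with its standard error; filled points passed an adjusted p of 0.05 and dotted lines mark the median of all genes. Cd74 lies far to the left in both genotypes, Cd68 to the right, and the C1qc, C1qa and Lyz2 points lie further right in WT than in HET.

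In HET cultures, Cd68 rose and Cd74 fell from 12 to 48 h, 2 of the 10 members, where 14.2% of all genes were called. The same 2 did not overlap between these times, against 29.7% of genes; between 12 and 24 h only Cd68 did not (38.4%), and between 24 and 48 h every member overlapped (18.3% of genes did not). Cd68 read 352, 264 and 427 normalized counts at 12 h, 1410, 915 and 1724 at 24 h, and 597, 921 and 615 at 48 h. Of the 24 h cultures 2 were above every 48 h culture and replicate 2 lay just under the highest, so the mean was highest at the middle time. The log2 difference was 1.93 (SE 0.30, adjusted p = 0.00125) from 12 to 24 h, where Cd68 was the only member called and 18.9% of genes were called, 1.03 (SE 0.30, adjusted p = 0.0325) from 12 to 48 h, and -0.90 (SE 0.30, adjusted p = 0.102) from 24 to 48 h. C1qc, at 1.0 (SE 0.43, adjusted p = 0.117) from 12 to 24 h in limma, had an adjusted p of 0.0322 (log2 1.19) in the authors' deposited table, among 3141 genes under 0.05. Cd74 read 631, 803 and 821 at 12 h, 228, 435 and 700 at 24 h, and 141, 244 and 435 at 48 h. Each 48 h culture was below each at 12 h, and the fall was 3.02-fold (log2 -1.59, SE 0.38, adjusted p = 0.0175).

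The HET values at 48 h varied with the culture. Without replicate 3 at 48 h the 12 to 48 h differences were -2.0 for Cd74 (adjusted p = 0.0012) and 1.12 for Cd68 (0.0199), and Cd74 also passed between 24 and 48 h (-1.14, adjusted p = 0.0467, against -0.73 and 0.303 with it), where 14.9% of all genes passed without that culture and 2.49% with it. Without HET replicate 2 at 12 h, or replicate 1 or 2 at 48 h, neither gene passed from 12 to 48 h (adjusted p 0.0781 to 0.150), nor did any other gene of the table in those 3 fits. Cd68 also failed without replicate 1 at 12 h (0.0679), where 6.53% of genes passed. C1qa, C1qc and C1qb had differences of 0.91 (SE 0.51), 0.64 (SE 0.43) and 0.38 (SE 0.33) from 12 to 48 h and did not pass; leaving out 1 culture moved them from 0.48 to 1.35 for C1qa, 0.16 to 1.0 for C1qc and 0.037 to 0.68 for C1qb, and without replicate 3 at 48 h they were 1.25, 1.0 and 0.59. Their values at 48 h were uneven: C1qc read 84.7, 196 and 61.0, C1qa 129, 242 and 86.5, and C1qb 132, 253 and 117. Replicate 2 was highest and replicate 3 lowest for each chain. The remaining members ranged from -0.36 (Cx3cr1) to 0.67 (Aif1), and the median of the 10 was 0.37 against 0.10 for all genes (0.57 against 0.12 without replicate 3 at 48 h).

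The comparison of HET with WT at each time asks whether the Dynlrb1 allele altered these genes. No member was called at 12 h, 24 h, 48 h or averaged over the times (limma). Of all genes 0.00581%, 0.00581%, 0% and 0.0174% were called, and 1447, 198, 3782 and 2315 genes had an unadjusted p under 0.05. Among the members that unadjusted level was passed by none at 12 or 24 h, by 3 at 48 h (1 higher, 2 lower in HET) and by 1, lower, in the average. At 12 h the member differences ran from -0.43 (Cd68) to 0.15 (Lyz2) and at 24 h from -0.35 (Cd74) to 0.30 (Cd68), and in every member the genotypes overlapped at both times, where 15.1% and 5.6% of all genes did not. Dynlrb1 itself, at -0.78, -0.86 and -0.84 at the 3 times, had an adjusted p of 0.0655, 0.0390 and 0.0501 (limma). The test at a single time thus missed the threshold at 12 and 48 h even for this gene, and a member not called there may still differ.

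At 48 h, 9 of 10 members had a negative difference (HET minus WT), with a median log2 difference of -0.47 against -0.03 for all genes (9 of 10 and -0.33 against -0.02 without HET replicate 3). The wider macrophage list described below did not share this: 20 of its 33 measured genes had a positive difference, with a median of 0.05, and none passed. Cd68 (597, 921 and 615 in HET against 1079, 2322 and 1176 in WT) and C1qc (84.7, 196 and 61.0 against 229, 324 and 210) did not overlap between the genotypes, 2 of 10 members, where 24% of all genes did not overlap. The log2 differences were -1.04 (SE 0.30, adjusted p = 0.0711) for Cd68 and -1.31 (SE 0.43, adjusted p = 0.1) for C1qc. The Cd74 difference was 1.0 (SE 0.38, adjusted p = 0.14), with a single HET culture inside the WT range. C1qa (-0.94, SE 0.51), Lyz2 (-0.62, SE 0.40) and C1qb (-0.56, SE 0.33) overlapped. At 48 h the same-numbered WT and HET cultures deviated together, and with the replicate number as a block Cd68 (adjusted p = 0.0332) and C1qc (0.0152) were called, among 1790 genes in place of 0; with the block within each time, added after seeing the data, these values were 0.0101 and 0.00635. In the authors' deposited table, the adjusted p at 48 h was 0.00593 for Cd68 (log2 -1.10) and 0.0302 for Cd74 (log2 1.14), among 1028 genes under 0.05 in that table.

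Single cultures moved these genotype values in both directions. Without HET replicate 3 they shrank to -0.95 for Cd68 (adjusted p = 0.292), -0.95 for C1qc (0.438) and 0.59 for Cd74 (0.580). Without HET replicate 2, Cd68 (-1.24, adjusted p = 0.0487) and C1qc (-1.78, 0.0419) passed, in a fit that called 513 genes. Cd74 passed without HET replicate 1 (1.40, 0.0469), where 736 genes were called, and Cd68 without WT replicate 3 (-1.18, 0.0491), where 931 were. Averaged over the times, the members ran from -0.41 (SE 0.25) for C1qc and -0.39 (SE 0.17) for Cd68 through C1qa (-0.35) and C1qb (-0.33) to 0.23 (SE 0.22) for Cd74, the only positive value. An exact permutation of the genotype labels within times (8000 arrangements, two-sided) gave p from 0.118 for Cd68 to 0.765 for Cx3cr1, while Dynlrb1 reached 0.00025, the smallest p possible. The difference between the genotypes in the 12 to 48 h change was -1.23 (SE 0.61, adjusted p = 0.562) for C1qc, 0.94 (SE 0.54, 0.578) for Cd74 and -0.61 (SE 0.42, 0.623) for Cd68. No member and 0% of genes passed that test (limma), in which 1534 genes and none of the members had an unadjusted p under 0.05. The time and genotype comparisons share the 48 h cultures.

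Ratios within a culture, which a scaling factor per culture does not alter, showed the same separation of the markers. In WT the log2 ratio of Cd68 to Csf1r FPKM climbed from 2.55 ± 0.15 (SD, n = 3) at 12 h through 3.39 ± 0.47 to 4.05 ± 0.50, without overlap between 12 h and either later time. C1qc to Csf1r went from -0.59 ± 0.46 to -0.18 ± 0.72 and 1.16 ± 0.20, with the 48 h cultures above all others. Cd74 to Csf1r fell from 2.39 ± 0.33 to 1.58 ± 0.28 and -0.29 ± 0.43, so a culture with about the same Csf1r carried far less Cd74 at 48 h. In HET the Cd74 ratio went from 2.60 ± 0.23 at 12 h to 0.88 ± 0.65 at 48 h, and the C1qc ratio stood at 0.01 ± 0.93 at 48 h, with cultures from -0.87 to 0.98. These ratios are descriptions with 3 cultures a group, where an exact test cannot go below 0.1.

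**Figure D3:**
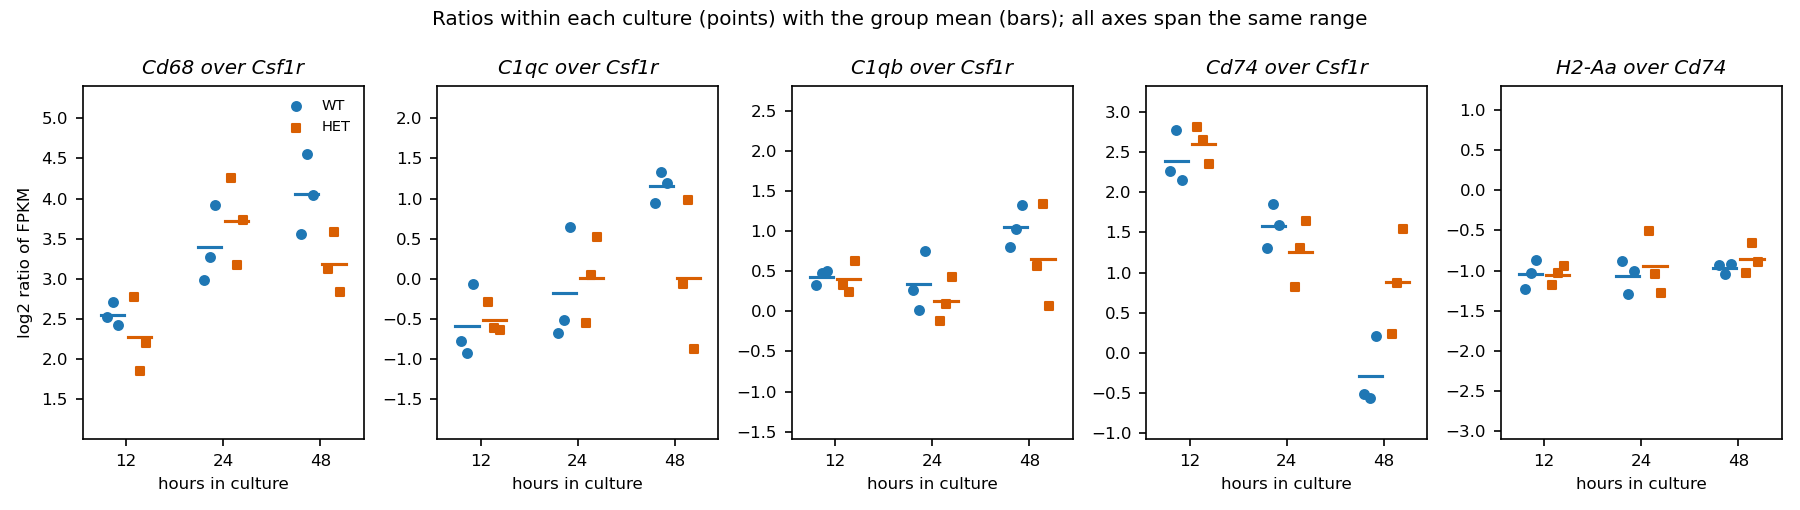
Log2 ratio of FPKM between pairs of genes within each culture (points; bars are group means of 3) against hours in culture, every axis spanning the same range. Cd68 over Csf1r and C1qc over Csf1r climb in WT, Cd74 over Csf1r drops, and H2-Aa over Cd74 stays near -0.99 in both genotypes.

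Cd74 acts with the MHC class II molecules, and 3 genes of the chains it escorts fell too, by unequal amounts. In WT from 12 to 48 h, H2-Aa (log2 -2.44, SE 0.34), H2-Ab1 (-1.69) and H2-Eb1 (-1.43) fell, against -2.53 for Cd74. H2-Aa was thus close to Cd74, while H2-Ab1 and H2-Eb1 fell less. H2-Aa read 207 to 340 normalized counts at 12 h, 171 to 213 at 24 h and 42.6 to 57.1 at 48 h. Ctss, the cathepsin S that trims the invariant chain, rose (0.99, adjusted p = 0.00672). That makes 1 higher and 3 lower of the 8 measured genes of the list, with a median of -0.26. Of all genes 30% were higher and 17.1% lower. H2-DMa, H2-DMb1, H2-DMb2 and Ciita, the peptide exchange factors and the class II transactivator, lay between -0.36 and 0.15 and did not pass. In HET, where 14.2% of all genes passed, only H2-Aa did (-1.39, adjusted p = 0.0187). H2-Ab1 (-0.92) and H2-Eb1 (-0.77) passed without HET replicate 3 at 48 h (-1.18, adjusted p = 0.0141, and -0.85, 0.0463), where H2-Aa was at -1.78. Without HET replicate 2 at 12 h, or 1 or 2 at 48 h, neither H2-Aa (0.0696 to 0.104) nor any other gene of the table passed. The log2 ratio of H2-Aa to Cd74 FPKM was -0.99 ± 0.20 over the 18 cultures, a smaller spread than for Cd74, Cd68 or C1qc over Csf1r. B cells and dendritic cells carry class II genes too: the summed normalized count of 5 measured lymphocyte genes, led by Cd79a (-0.92, adjusted p = 0.0777), was 90.3 to 134 in WT at 12 h and 20.4 to 60.2 at 48 h, and that of 4 dendritic genes, led by Zbtb46, 1330 to 1444 and 1037 to 1199. Zbtb46 alone read 846 to 922 and 681 to 835, so the dendritic sum mostly follows that gene. Of the 4 dendritic genes 0 had a positive difference (median -0.72) and 2 passed as lower. The part of the lymphocyte and dendritic genes in the Cd74 values was not tested.

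Of the 4 ligand genes, 2 rose and 1 fell in WT from 12 to 48 h, where 30% of all genes rose and 17.1% fell. The receptor genes Csf1r and Cx3cr1 did not pass. Csf1, a ligand of Csf1r, read 3674 to 7575 normalized counts in WT at 12 h and 10974 to 17064 at 48 h, a rise of 1.43 (SE 0.29, adjusted p = 0.00088). Il34, the other ligand, had a difference of 0.34 (adjusted p = 0.171), which passed without WT replicate 1 at 12 h (0.55, adjusted p = 0.0313). Cx3cl1, the ligand of Cx3cr1, fell from 1031 to 1842 at 12 h to 309 to 556 at 48 h (log2 -1.67, SE 0.27), without overlap. Mif, a ligand of Cd74, rose slightly (0.34, SE 0.12, adjusted p = 0.0307), a call lost without WT replicate 5 at 12 h (0.168) or replicate 1 (0.0529) or 2 (0.130) at 48 h. In HET the 48 h differences of Csf1 (0.88, adjusted p = 0.0503) and Cx3cl1 (-0.76, 0.0627) missed the threshold and passed without HET replicate 3 at 48 h (1.12 and -1.03, adjusted p = 0.0118 and 0.00805); Csf1 also passed without replicate 1 at 12 h (0.0365). Csf1 was called in HET from 12 to 24 h (1.09, adjusted p = 0.0162), a call lost without replicate 2 at 12 h (0.106) or 1 at 24 h (0.0719).

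Other complement genes moved opposite to C1qa and C1qc. In WT from 12 to 48 h, 11 of 16 measured genes fell and 1 rose, where 17.1% of all genes fell and 30% rose, with a median of -1.29 against 0.11 for all genes. The largest falls were in C3 (-2.96), the central component, Cfb (-2.80), factor B of the alternative pathway, C4b (-2.53) of the classical pathway, and Cd55 (-2.25), a regulator that breaks up convertases; Cd59a, which blocks the terminal complex, rose (0.69). In HET, where 14.2% of all genes were called in either direction, 5 of 16 fell, led by Cfb (-1.69), C3 (-1.67), C4b (-1.36) and Cd55 (-1.28). Without HET replicate 3 at 48 h, 7 fell and 1 rose, where 28.4% of all genes were called, and those 4 were at -2.07, -2.21, -1.62 and -1.78. None of them passed without HET replicate 2 at 12 h or replicate 1 or 2 at 48 h (adjusted p 0.0633 to 0.212), where 0 genes of the table did. C3 and Cfb also failed without replicate 1 at 12 h (0.0531 and 0.119) and Cd55 without replicate 5 at 12 h (0.0669). Itgam, C3ar1 and C5ar1 of this list also belong to the wider macrophage list.

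A wider macrophage list of 33 measured genes did not move as one group either. In WT 3 rose from 12 to 48 h, Tmem119 (1.28), the lipid receptor Trem2 (1.18) and Ctss (0.99), and 9 fell. That is 12 of 33, where 47.1% of all genes were called, 30% higher and 17.1% lower. The list median was -0.47 against 0.11 for all genes. The largest falls were in Ccr2 (-2.45), the chemokine receptor of inflammatory monocytes, Cd86 (-2.05), a costimulatory ligand, Ptprc (-1.66), the pan-leukocyte CD45, and Irf8 (-1.46), a transcription factor of the monocyte lineage. In HET Trem2 rose (1.51, adjusted p = 0.0310), as it did by 24 h (1.60, adjusted p = 0.0162), and Lyve1, a hyaluronan receptor, fell (-1.01, adjusted p = 0.0232; -1.38 in WT), 2 of 33 where 14.2% of all genes were called. Without HET replicate 3 at 48 h, 2 rose and 5 fell, with Trem2 at 1.60 and Lyve1 at -1.32, where 28.4% of all genes were called. Many of these calls rested on single cultures. In WT, Trem2 held only when replicate 1 at 12 h was left out (otherwise adjusted p 0.0508 to 0.0918), Tmem119 failed without replicate 2 at 12 h (0.0687) or 3 at 48 h (0.0669), Ccr2 without replicate 1 at 48 h (0.0529), and Cd86 without replicate 5 at 12 h or 2 or 3 at 48 h (0.0543 to 0.0731). In HET, Trem2 and Lyve1 failed, with every other gene of the table, without replicate 2 at 12 h or 1 or 2 at 48 h (0.0801 to 0.147), Trem2 also without replicate 1 at 12 h (0.123), and the 24 h rise of Trem2 failed without replicate 1 at 12 h (0.0749) or 5 at 24 h (0.0929).

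**Figure D4:**
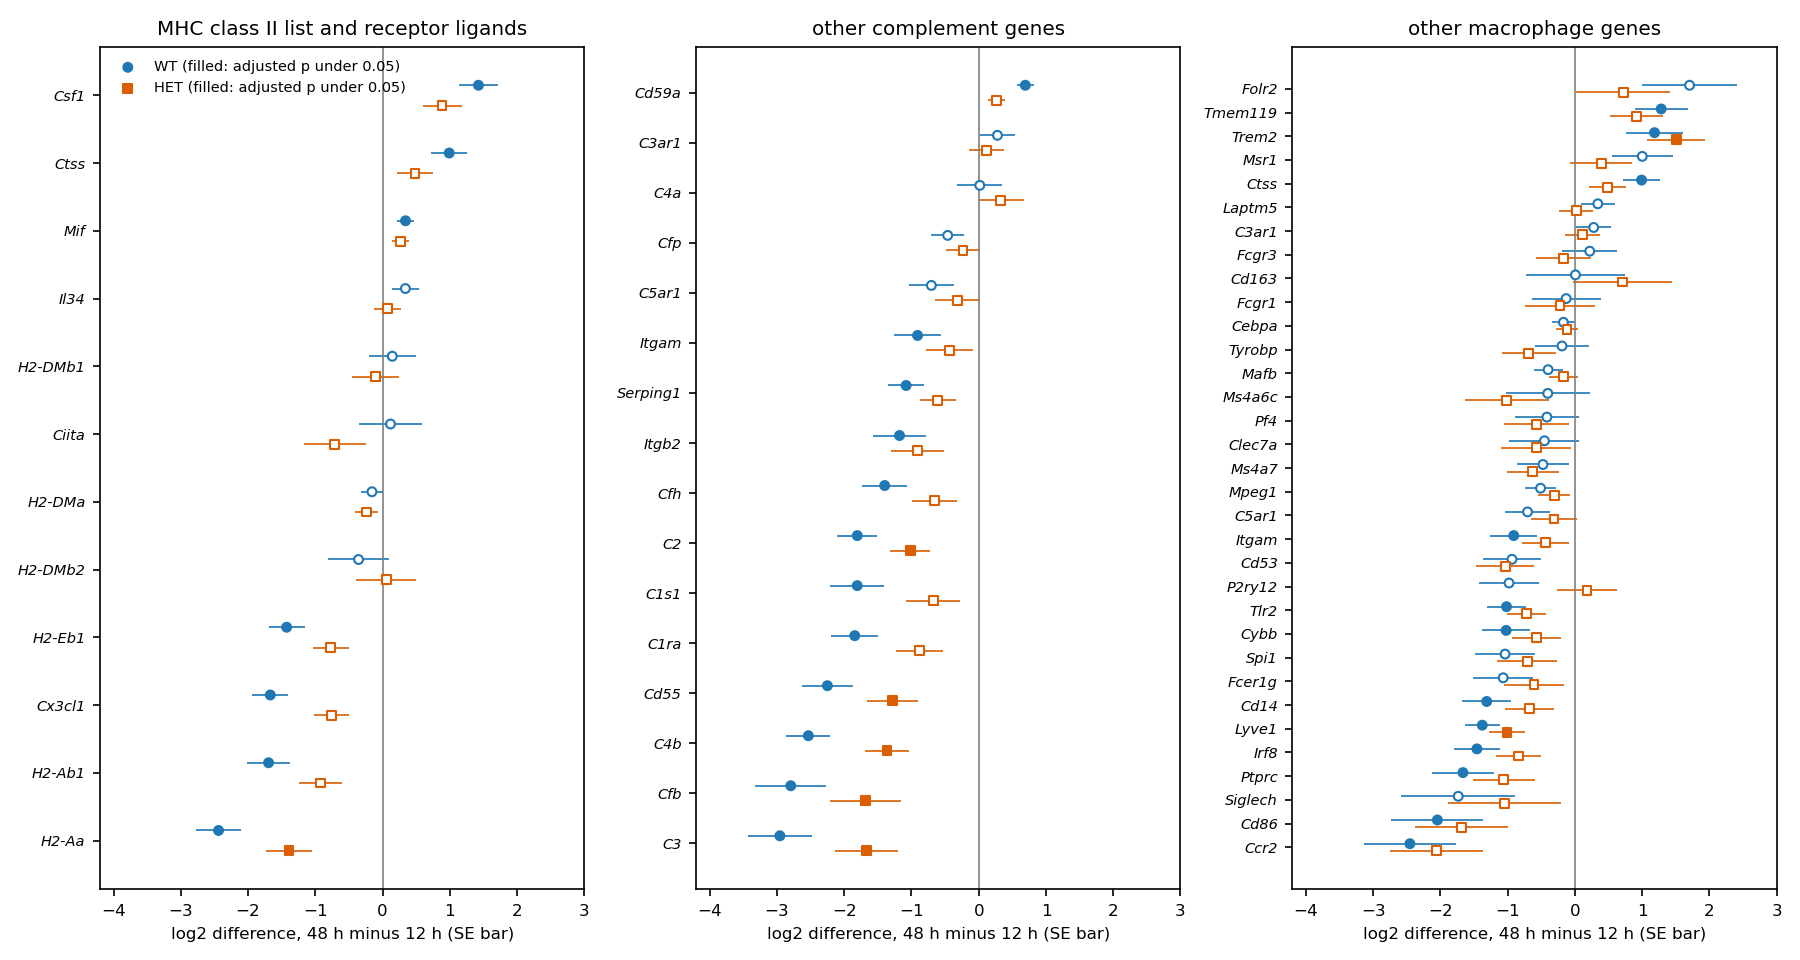
Log2 difference between 48 and 12 h with its standard error for the MHC class II list with the receptor ligands, other complement genes and other macrophage genes, in WT (circles) and HET (squares); filled points passed an adjusted p of 0.05. H2-Aa, H2-Ab1 and H2-Eb1 lie left with C3 and Cfb, and Csf1, Ctss, Tmem119 and Trem2 lie right.

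The genes whose pattern was most like the mean standardized log2 level of the 10 members over the 18 cultures, measured by Pearson's r, were Sept10 (0.90), Rpap3 (0.90), Lpcat2 (0.89), Usp39 (0.88) and Ctss (0.87). Among the members themselves r was 0.93 for C1qb, 0.92 for C1qa and 0.88 for C1qc, 0.46 for Cx3cr1 and -0.26 for Cd74, the only negative value. The members enter that mean, the points share time, genotype and scaling, and the values are descriptions.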

How the data were processed

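RNA-seq values for 18 cultures in 6 groups of 3 came from a single table of 17198 genes. Per the file headers, it holds the authors' normalized counts (a signal: none is a whole number or 0, and each culture totals 41509705 to 41509874), a further set of adjusted values (deposited signal totals of 39465712 to 44213485), the authors' FPKM, their log2 fold changes, and their adjusted p-values from pairwise comparisons. The submitters' processing notes name mm10, CASAVA 1.8.2 and edgeR. The aligner, counting, strand and annotation are not given in the sources used here, and neither is raw depth, so no count test or counting interval was made. A further 24 per-sample columns were not used. The further set of adjusted values lacks 2 of the directions in which 18 cultures can vary. The normalized counts were not examined for this. The labels do not say what equal replicate numbers share. Deviations from the group means of same-numbered WT and HET cultures correlated over 0.1 in 3 of 3 pairs at 48 h (0.21 to 0.46), 2 of 3 at 12 h (0.032 to 0.19) and 2 of 3 at 24 h (-0.21 to 0.26), so the block is given beside the 48 h genotype result.

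Normalized counts were tested as log2(value + 1) with limma 3.58.1 (R 4.3.3; one coefficient per group, trended spread, 12 residual degrees of freedom, Benjamini-Hochberg over all genes, threshold 0.05); fold changes are on that scale and understate low genes. A minimum mean of 1 removed 0 genes. Single genes were also tested by exact permutation. Levels between genes were compared as FPKM only. The fit was tested on simulated data. The alternatives were another set of adjusted columns, quantile normalization, a pseudocount of 0.1, a minimum mean of 5, no filter, only the groups compared, the absent directions as covariates, a replicate block, and leaving out each culture; the block within each time was added after seeing the data.

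The members, lists and motifs were chosen with earlier results of these data known. Genes named beside the members are all measured receptor ligands and class II genes, the largest changes past the threshold in the other complement and macrophage lists, the leading genes of the blood cell, dendritic and proliferation lists, and the closest patterns. Adgre1 and Timd4 of the macrophage list and C1rb of the complement list were not used here. C1qa has no promoter window here. Csf1r and Cd74, both on chromosome 18, were left out of the promoter windows, so the motif counts do not cover them.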

Additional observations from a re-analysis of the deposited data

Results flagged for a closer look

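The Cd68 differences between 24 and 48 h had opposite signs in the genotypes, 0.44 in WT (adjusted p = 0.278) and -0.90 in HET (adjusted p = 0.102), neither of which passed, and in both the times overlapped. Every WT culture at 48 h was above the WT mean at 24 h (1079, 2322 and 1176 normalized counts against a mean of 1073), and every HET culture at 48 h was below the HET mean at 24 h (597, 921 and 615 against 1349). The change in HET minus that in WT was -1.34 on the log2 scale. This difference was not tested, and the lowest WT culture cleared the mean narrowly. No group held enough cultures for a check of outlying values.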

How the results depend on the processing

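Counts of members called were 0 for every genotype comparison and for the difference in change between 12 and 48 h under all alternatives that keep every culture, except the replicate block. The block called 2 members (Cd68 and C1qc) and 1790 genes instead of 0 between HET and WT at 48 h; the block within each time, added after seeing the data, also called 2, and quantile normalization called 276 genes but no member. The block gave 8 instead of 5 from 12 to 48 h in WT, 3 instead of 1 from 24 to 48 h in WT, 3 instead of 1 from 12 to 24 h in HET and 4 instead of 2 from 12 to 48 h in HET. Among all genes it called 51.4%, 38.5%, 24.1% and 29.6% in these comparisons, against 47.1%, 27.7%, 18.9% and 14.2% without it. Over all times, deviations from group means correlated over 0.1 in 7 of 9 same-numbered pairs (mean r 0.17, range -0.21 to 0.46), so pairing is not shown at 12 and 24 h; across times it was not checked. With only the groups compared, 4 members were called from 24 to 48 h in WT and 0 from 12 to 48 h in HET. Quantile normalization left 1 in the latter. The share of all genes called from 24 to 48 h in WT with only those groups is not given here. The 4 members can therefore not be set against genes at large. Over all genes, 622 were called from 12 to 24 h in WT, against 1218 with the block and 1132 with the absent directions as covariates, and 2442 from 12 to 48 h in HET, against 5099 with the block, 1596 with quantile normalization and 0 with only the groups compared. With the other value columns the all-gene median from 12 to 48 h in WT was 0.01 instead of 0.11, and the share of called genes that were higher was 52.6% instead of 63.6% in WT and 51.9% instead of 74.5% in HET (53.4% with quantile normalization). Leaving out 1 culture gave 0 to 2 members for HET against WT at 48 h, 0 for WT from 12 to 24 h, 3 to 5 for WT from 12 to 48 h, 1 to 2 for WT from 24 to 48 h, 1 to 3 for HET from 12 to 24 h, 0 to 2 for HET from 12 to 48 h, 0 to 1 for HET from 24 to 48 h and 0 for the rest. The sign turned only far from the threshold: for Csf1r from 12 to 48 h with quantile normalization (-0.066 in WT, -0.065 in HET), and when 1 culture was left out for Csf1r in HET (-0.10 to 0.32), Cx3cr1 (-0.43 to 0.077), H2-DMb1 (-0.16 to 0.50) and Ciita (-0.044 to 0.31) in WT, Lyz2 between genotypes at 12 h (-0.34 to 0.59) and Cd74 between genotypes at 24 h (-0.74 to 0.070). Of 650 single-gene values under alternatives with all cultures, 613 kept direction and call, 15 lost the call, 20 gained it and 2 turned. The filter removed 0 genes, so the setting with no filter repeats the main fit and its values agree by construction. When 1 culture was left out, 454 of 534 values kept direction and call, 61 lost the call, 13 gained it and 6 turned. The causes were not tested. Raw depth is unknown, so the error of low genes such as Cx3cr1 and Aif1 can be judged only from the spread between cultures.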

Other observations

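Many genes of other blood cells fell while most of the 10 macrophage members did not, although 9 of the 33 genes of the wider macrophage list fell in WT and 3 rose. In WT from 12 to 48 h, where 17.1% of all genes fell, 7 of 10 neutrophil genes did, with S100a9 at -4.28 (SE 1.28). All 3 measured red cell genes, with Alas2 at -4.17 (SE 0.80), and 2 of 5 lymphocyte genes also fell. In HET, where 14.2% of all genes were called in either direction, 5, 3 and 0 fell (8, 3 and 2 without replicate 3 at 48 h, where 28.4% of all genes were called). The 3 red cell genes together read 189 to 1058 normalized counts in WT at 12 h and 13.2 to 30.7 at 48 h, while the 10 macrophage markers together read 2164 to 3975 and 4334 to 6585. The rise of that macrophage sum came mainly from Cd68 and Lyz2, which neutrophils also make, while Cd74 fell. HET replicate 3 at 48 h kept more of the red cell and neutrophil transcripts: 447 for the red cell genes against 22.2 and 71.9 in the other HET cultures, and 2183 against 158 and 231 for the neutrophil genes.

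From 12 to 48 h, 30% of all genes rose in WT and 14.2% were called in either direction in HET. All 6 proliferation genes rose in WT and 5 of 6 in HET (6 without replicate 3 at 48 h, where 28.4% of all genes were called). The median log2 difference of the 6 was 2.57 in WT and 1.82 in HET. Birc5, at 1.57 in WT and 1.66 in HET, was the only 1 of the 6 with a larger difference in HET. At 48 h, 0 of the 6 had a positive difference (HET minus WT, median -1.20), and none passed. The sum of the 6 at 48 h was 2006 to 4283 in WT and 3020, 1940 and 498 in HET, the lowest again in replicate 3. These genes mark dividing cells of any type, and which cells carried them was not tested.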
